A study of Mus musculus with 12 samples.

Results

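Motor proteins and the filaments they walk on were read in the mouse hippocampus by 52 probe sets of 39 genes, out of 11868 probe sets that are no controls. The members were chosen by name alone: each probe set has 1 gene symbol on the platform, and that symbol begins with Kif, Dync, Dynl, Dnah, Dnaic, Tub, Actr, Arpc or Klc, or with Myo and a digit. Another 4 probe sets that carry such a name beside other symbols were left out. The arrays (array C of the Affymetrix murine genome U74 set) hold hippocampal RNA in 4 groups of 3 arrays, and each array carries RNA pooled from 3 animals. The groups are control mice given saline, control mice given kainate, mutant mice given saline and mutant mice given kainate, where the mutants lack CREB and CREM. Kainate, a glutamate receptor agonist that drives seizures, was injected at 20 mg/kg into the abdomen, and all animals were killed 1 hour after the injection of kainate or saline. The mice were littermates of both sexes, 5 to 6 weeks old, and had been caged singly and handled for 5 days. The alleles behind the mutant and control labels, and the cells in which the deletion acts, are not stated in the sources available.

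Kinesins carry cargo along microtubules, mostly outwards along axons and dendrites, while cytoplasmic dynein with its partner dynactin carries cargo back towards the cell body. Axonemal dyneins bend motile cilia, a number of kinesins build the spindle of dividing cells, myosins move on actin, and the Arp2/3 complex starts actin branches in dendritic spines. In hippocampal neurons this machinery places mitochondria, vesicles and receptors at synapses. CREB and CREM are transcription factors that bind the cyclic AMP response element (CRE), an 8-base palindrome.

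The stretches before the gene starts of 3 members are shown because they carry such an element or because all kainate arrays of the gene lay on the same side of the saline arrays in both genotypes. Each is the 120 bases before the start on the plus strand, 5′ to 3′, from the RefSeq promoter table of build GRCm38.p6: Klc1 at chr12:111758748-111758867, Kif17 at chr4:138262131-138262250 and Dynlrb2 at chr8:116504895-116505014. Capitals mark the CRE (TGACGTCA) and the X-box, a longer inverted repeat bound by RFX factors at genes of cilia, and no other motif is marked.
Klc1: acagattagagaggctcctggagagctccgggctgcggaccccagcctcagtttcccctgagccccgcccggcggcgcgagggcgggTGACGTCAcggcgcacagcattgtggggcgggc
Kif17: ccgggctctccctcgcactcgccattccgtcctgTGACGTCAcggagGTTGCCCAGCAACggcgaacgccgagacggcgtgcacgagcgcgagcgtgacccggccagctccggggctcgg
Dynlrb2: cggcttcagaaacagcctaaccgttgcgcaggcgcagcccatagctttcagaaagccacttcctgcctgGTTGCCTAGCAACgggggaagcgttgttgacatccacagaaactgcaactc
The CRE begins 33 bases before the Klc1 start and 86 bases before the Kif17 start. The X-box begins 73 bases before the Kif17 start and 51 bases before the Dynlrb2 start. Both motifs were searched on both strands of every promoter window of 300 bases (250 before and 50 after a start), and 28 of the 39 genes have such windows, 31 in all. A CRE lies in 2 of these 31 windows (6.45%) and in 1.79% of all 32851 windows. The X-box was searched after it had been seen in the printed stretches, and it lies in 2 of the 31 windows and in 0.0974% of all windows. The shorter site TGACG, which is also part of the CRE, lies in 13 of the 31 windows (41.9%) and in 20.8% of all windows. These matches are a description of letters, and binding was not measured.

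Some arrays stand apart. The array of mutant kainate replicate 3 is compressed: the SD over its probe sets is 1.52, against 1.71 to 1.78 on the others, and its highest correlation with any other array is 0.899, against 0.986 to 0.994. The array labelled control kainate replicate 3 reads the astrocyte gene Gfap at 12.95, where its fellow replicates read 11.51 and 11.53, while the mutant saline arrays read 12.23 to 13.00. The array labelled mutant kainate replicate 3 reads Gfap at 11.55, where the other mutant kainate arrays read 12.82 and 13.03, and this is inside the range of the control saline arrays, 10.75 to 11.59. Both arrays go against their group in this gene, so the members' differences are also given without both. Replicate 1 arrays differ from replicates 2 and 3 on many probe sets, so differences are also given for replicate 1 alone and for replicates 2 and 3 alone. A replicate here is a pool, so the p-values measure the spread between pools and not between animals. In tissue RNA, fewer cells of a type and less RNA per cell cannot be told apart. Of the 16 neuron markers 2 were on the array, and the 1 probe set of them above log2 4 had a linear signal of 236.7 to 247.7 in control saline, 276.6 to 305.8 in control kainate, 242.2 to 329.7 in mutant saline and 127 to 337.7 in mutant kainate. Of the 15 astrocyte markers 7 were on the array and 4 above the level (Gfap, Apoe, Pla2g7 and Slc1a2). All 4 were higher after kainate on average, with a median of 0.31, 2 of them at an unadjusted p under 0.05 (Apoe and Pla2g7, limma adjusted p = 0.349 for each), and none passed the adjusted test. Their summed linear signal was 1875 to 3148 in control saline, 2965 to 8181 in control kainate, 4931 to 8266 in mutant saline and 3148 to 8537 in mutant kainate. Most of this sum is Gfap, with a mean log2 value of 12.05 against 4.09 to 5.97 for the others. The median mutant minus control difference of the 4 was -0.03 after saline (2 positive) and -0.07 on average (1 positive). The part of these markers in the members' differences was not tested.

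A log2 value of 4 on 3 or more of the 12 arrays was taken as signal above the dim range, and 14 of the 52 probe sets (26.9%) reached it, against 29.8% of all probe sets. The 14 probe sets stand for 14 genes. Of the 17 kinesin probe sets (13 genes) 6 reached it: those of Kif5a (the neuronal heavy chain of conventional kinesin), Kif21a (a kinesin that damps microtubule growth), Kif22 and Kif23 (kinesins of chromosome movement and cytokinesis), Kifc3 (a kinesin that walks to the minus end) and Kifbp. Kifbp encodes a protein that binds and holds back kinesins and is no motor itself. The light chain Klc1, which joins cargo to conventional kinesin, reached the level on 1 of 2 probe sets. The light intermediate chain Dync1li2 of cytoplasmic dynein reached it on its only probe set. Of 5 dynein light chain probe sets 2 reached it, those of Dynlrb2 and Dynlt3. The axonemal intermediate chain Dnaic1 reached it, while the axonemal heavy chains Dnah5 and Dnah9 did not. Of 9 myosin probe sets (8 genes) that of Myo1h reached it, of 7 actin-related probe sets (4 genes) 1 of Actr1a, and of 4 Arp2/3 probe sets 1 of Arpc5l. Actr1a builds the short actin-like filament of dynactin, and Arpc5l is a variant subunit of the Arp2/3 complex. None of the 3 tubulin probe sets (Tuba3a, Tubb1 and Tube1) reached the level.

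**Figure D1:**
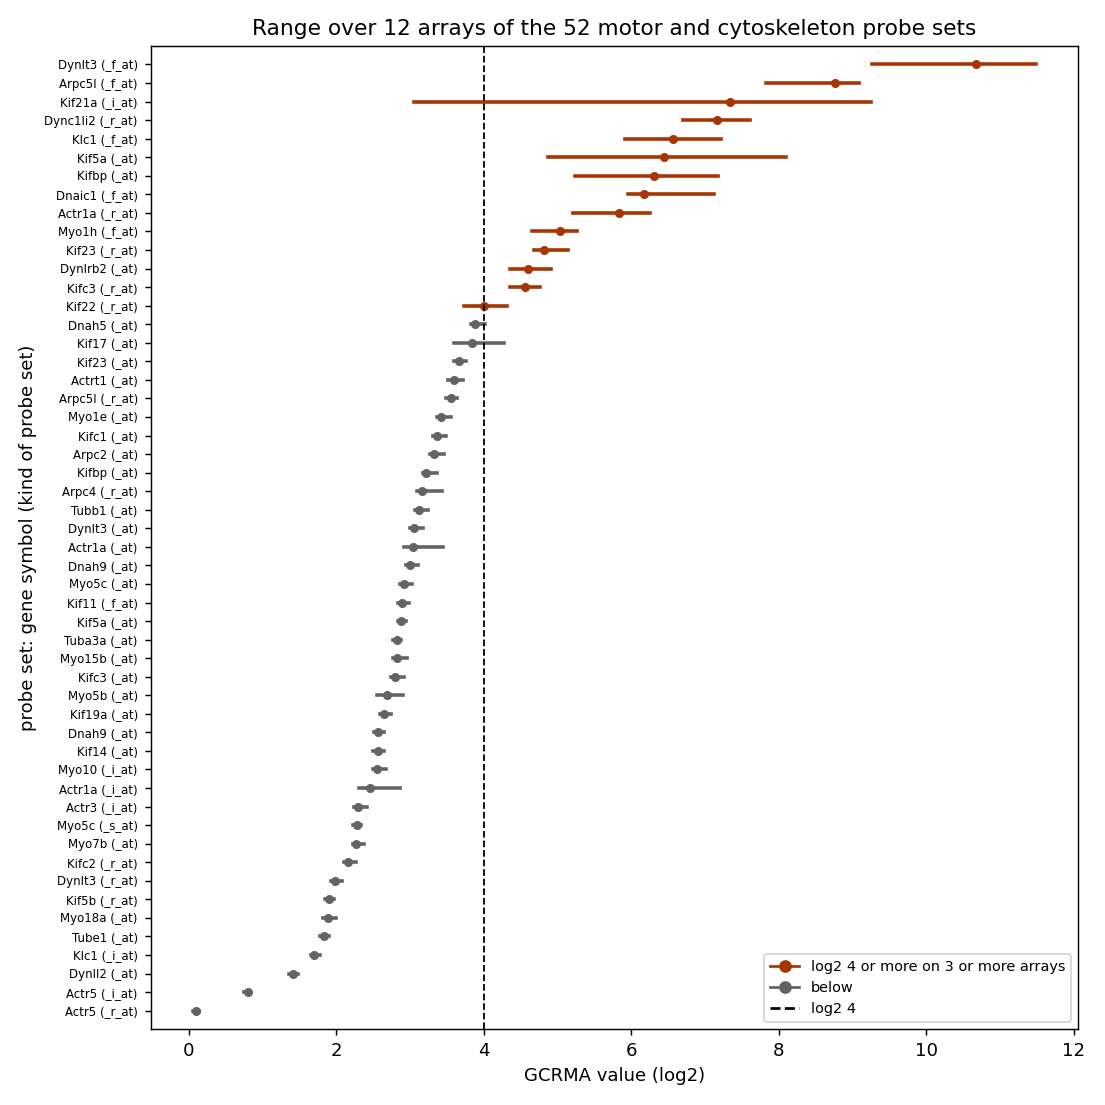
Range (line) and mean (dot) over the 12 arrays of each of the 52 probe sets, in GCRMA values on the log2 scale, with the dashed line at log2 4. The 14 probe sets that reached this level on 3 or more arrays are in brown, and the 38 others, of which Kif17 and Dnah5 reach it on 1 array each, in grey. Probe sets differ in how strongly they bind, so their order is no order of gene expression.

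The 38 remaining probe sets ran from 0.05 to 4.27 and hardly varied, with a median range of 0.17 over the arrays, against a median range of 1.105 for the 14. By gene, those with no probe set above the level are named here to account for every member. Among the kinesins these are Kif11, Kif14 and Kifc1 of the spindle, Kif5b, the widely made heavy chain of conventional kinesin, Kif19a, Kifc2 and Kif17, and among the dynein light chains Dynll2 (1.36 to 1.48). The 7 myosin genes are Myo10, Myo15b, Myo18a, Myo1e, Myo5b, Myo5c and Myo7b. Actr3 and the Arp2/3 subunits Arpc2 and Arpc4 also read below it, as did Actr5, a subunit of a chromatin remodeller, and the testis gene Actrt1. Such low values say nothing about whether these genes are active in the hippocampus. Of the 11 genes with several probe sets, 8 had exactly 1 above the level and 3 had none. Actr1a, for example, read 5.21 to 6.26 on 1 probe set, 2.92 to 3.45 on the second and 2.30 to 2.86 on the third. Dynlt3 read 9.27 to 11.49 on 1 probe set and 1.93 to 2.07 and 3.00 to 3.18 on the others. No second probe set therefore gives a check on any of the 14 genes.

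The kind of probe set went with the level. Affymetrix marks probe sets whose probes also match related sequences with _f_at, those with fewer probes than usual with _i_at, and those for which selection rules were dropped with _r_at, while plain _at sets are designed as unique. Of the 28 plain members 3 reached log2 4 (10.7%, against 25.1% of all plain probe sets): Dynlrb2, Kif5a and Kifbp. Of the 6 members marked _f_at 5 did (83.3%, against 47.8% of all such sets): Arpc5l, Dnaic1, Dynlt3, Klc1 and Myo1h. Of the 11 marked _r_at 5 did (45.5%, against 41.0%), and of the 6 marked _i_at only Kif21a did (16.7%, against 24.0%). For the 5 genes read by an _f_at set, signal from related sequences cannot be told apart from the gene's own.

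Kif21a and Kif5a varied more between arrays than any other members, and the main split in their values was by replicate number. Kif21a read 5.83, 4.65, 4.47 and 3.05 on the replicate 1 arrays of control saline, control kainate, mutant saline and mutant kainate, and 8.25 to 9.25 on the other 8 arrays. Its mean was 4.5 against 8.76, a log2 difference of -4.26, which ranks 1 of the 3541 probe sets above the level by size. Kif5a went the other way, at 8.01, 8.10, 7.70 and 7.59 on the replicate 1 arrays against 4.87 to 6.26 on the others (difference 2.11, rank 21). For both genes the replicate 1 arrays do not overlap the rest, which holds for 6.78% of the 3541 probe sets in the higher and 2.29% in the lower direction. Kifbp was also higher on replicate 1 arrays (6.59 to 7.17 against 5.23 to 6.61, difference 0.89), with a narrow overlap. The other 11 members differed by 0.01 to 0.45 in size. Beneath this split both genes also read lower after kainate in replicates 2 and 3, as given with the kainate comparison. The labels do not say what sets replicate 1 apart, and these differences were not tested.

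**Figure D2:**
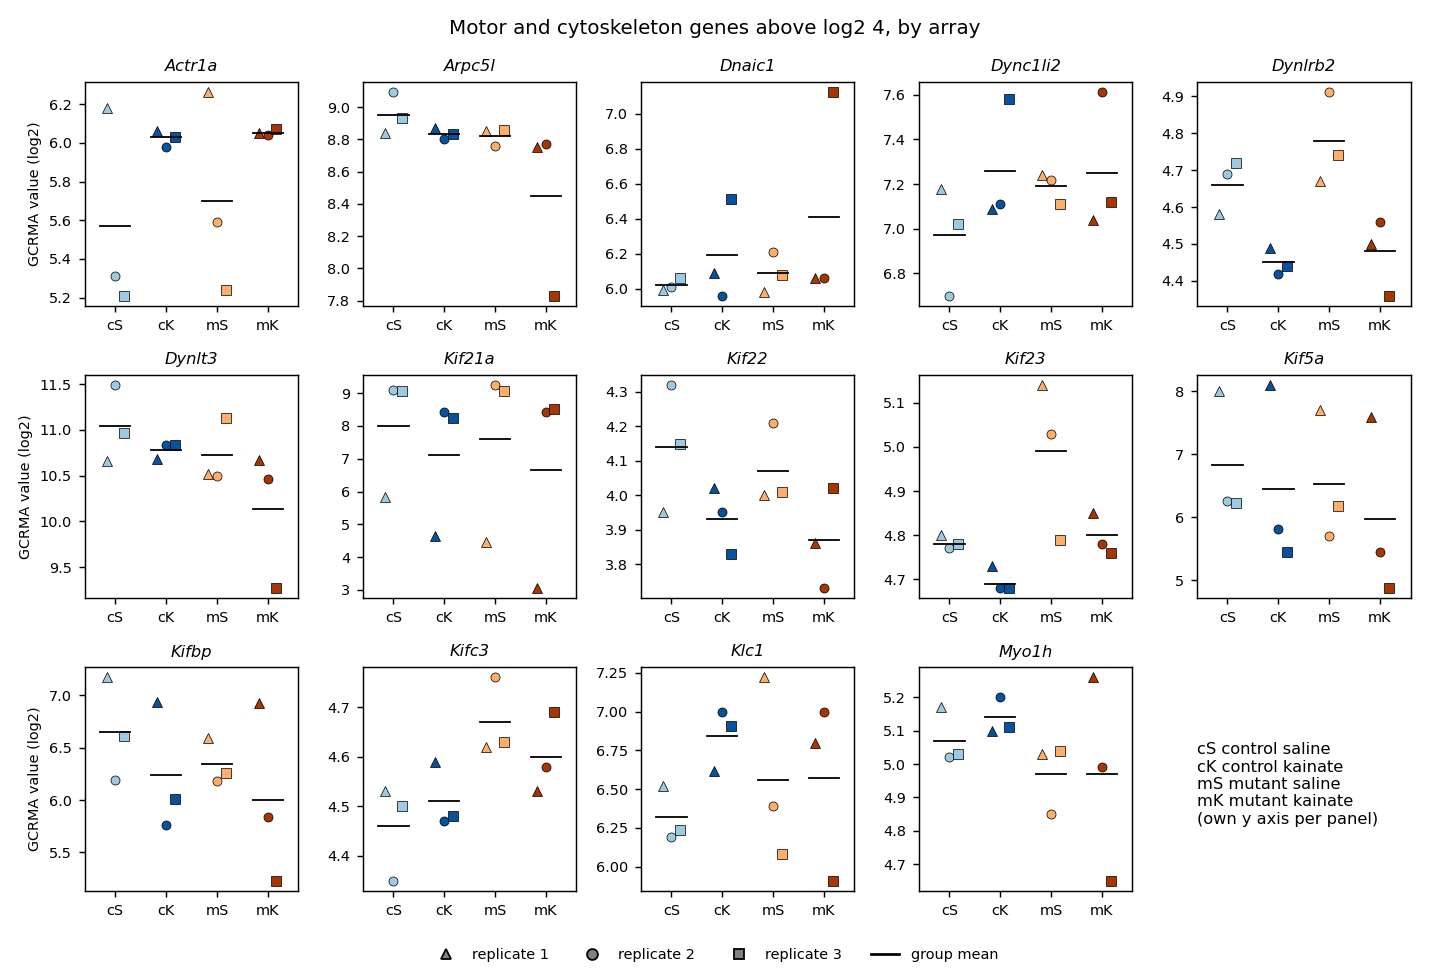
GCRMA values (log2) of the 14 genes above log2 4 on each of the 12 arrays, by group, with a marker for each replicate number and a line at the group mean; each panel has its own axis. Replicate 1 (triangles) stands at 3.05 to 5.83 for Kif21a and 7.59 to 8.10 for Kif5a, outside the range of all other arrays, and mutant kainate replicate 3 is the lowest array for Dynlt3, Arpc5l, Kif5a, Kifbp, Klc1, Myo1h and Dynlrb2.

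Whether kainate changes these genes within 1 hour was asked in each genotype and averaged over both. In the limma fit over 3541 probe sets none of the 14 members passed an adjusted p of 0.05 in control mice, in mutant mice or on average, where 0.0282%, 0.0282% and 0.141% of all probe sets passed. At an unadjusted p under 0.05 there were 1 of 14 members in control mice (4.46% of all probe sets), 2 in mutant mice (8.47%) and 3 on average (11.3%). On average 5 members were higher and 9 lower after kainate, with a median log2 difference of -0.17, and over all probe sets 31.6% were higher with a median of -0.04. When limma weighted each array by its fit to the model, Dynlrb2, Kif22 and Klc1 passed on average (adjusted p = 0.0131, 0.0233 and 0.0402), as did 482 probe sets in all.

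Dynlrb2, a roadblock-type light chain through which dynein takes up cargo and which is abundant in ciliated cells, was lower on every kainate array than on every saline array. In control mice it read 4.58, 4.69 and 4.72 after saline and 4.49, 4.42 and 4.44 after kainate. In mutant mice it read 4.67, 4.91 and 4.74 after saline and 4.5, 4.56 and 4.36 after kainate. The groups do not overlap in either genotype, as for 4.63% of all probe sets in control and 8.44% in mutant mice in this direction, and the whole span from lowest to highest array is 0.55. The difference was -0.21 ± 0.08 in control mice (SE, n = 3 arrays per group, limma adjusted p = 1), -0.30 ± 0.08 in mutant mice (adjusted p = 0.579) and -0.26 ± 0.06 on average (6 of 6 kainate arrays lower, unadjusted p = 0.00127, adjusted p = 0.297). It was the 1 member of 14 with no overlap between all saline and all kainate arrays, which holds for 0.452% of all probe sets in this direction and 0.395% in the other. The average difference was -0.13 in replicate 1, -0.32 in replicates 2 and 3. In a fit that left out replicate 3 of both kainate groups and took replicate 1 against the others as a block it was -0.21 (adjusted p = 0.254).

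Markers of ciliated ependyma and choroid plexus were read beside Dynlrb2. Of the 24 genes on that list 9 were on the array and 2 above the level, Pifo and Enkur, both ciliary genes. Their average kainate differences were -0.17 ± 0.09 for Pifo and -0.05 ± 0.04 for Enkur (limma adjusted p = 0.505 and 0.742). Their summed linear signal was 36.98 to 41.49 in control saline, 34.00 to 37.78 in control kainate, 37.19 to 45.85 in mutant saline and 35.63 to 39.59 in mutant kainate. The other 7 genes, Cfap43, Spag16, Tmem212, Spag6l, Hydin, Folr1 and Clic6, stayed below the level. Their part in the Dynlrb2 difference was not tested.

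Kif17, a kinesin of dendrites and cilia that carries NMDA receptor subunits, was read in the dim range, but it was higher on the kainate arrays of both genotypes. It read 3.71, 3.65 and 3.59 in control saline and 3.96, 3.74 and 3.97 in control kainate. It read 3.81, 3.82 and 3.78 in mutant saline and 4.27, 3.87 and 3.89 in mutant kainate. Within each genotype no kainate array overlaps a saline array, although control kainate replicate 2 lies below the mutant saline arrays. Of the 38 members below the level 1 separated so in control mice and 2 in mutant mice. Of all 11868 probe sets 2.81% separate so in control mice and 1.07% in mutant mice in this direction. How many separate in both genotypes was not counted. Only mutant kainate replicate 1 reached log2 4, so no size is given for the difference. In the limma fit without the level filter the adjusted p was 1 in both genotypes.

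**Figure D3:**
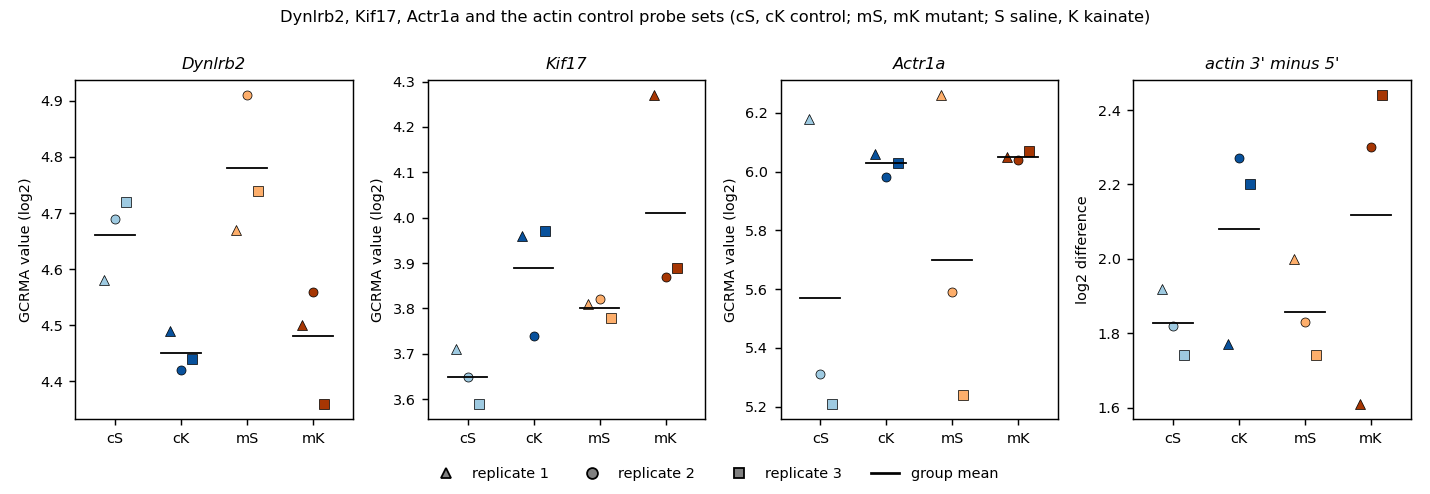
Values on the 12 arrays of Dynlrb2, Kif17 and Actr1a (GCRMA, log2) and of the difference between the 3′ and 5′ actin control probe sets (log2), by group and replicate number, with lines at group means. Dynlrb2 is lower on the kainate arrays at 4.36 to 4.56, Kif17 is higher within each genotype, and Actr1a and the actin difference are higher after kainate in replicates 2 and 3 and lower after kainate in replicate 1.

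Actr1a, Klc1 and Dync1li2, which serve dynactin, kinesin and dynein, gave positive average differences that came from replicates 2 and 3. Actr1a read 6.18, 5.31 and 5.21 in control saline and 6.06, 5.98 and 6.03 in control kainate. In mutant mice it read 6.26, 5.59 and 5.24 after saline and 6.05, 6.04 and 6.07 after kainate. The 6 kainate arrays lie within 5.98 to 6.07, while the saline arrays split, with replicate 1 above and replicates 2 and 3 below them. This split was seen in the values, and how many of all probe sets show it was not counted. The average difference of Actr1a was 0.41 ± 0.20 (limma adjusted p = 0.493), with -0.16 in replicate 1, 0.69 in replicates 2 and 3. It was 0.46 ± 0.28 in control and 0.35 ± 0.28 in mutant mice. The other Actr1a probe sets, both in the dim range, went in opposite directions after kainate on average, also in replicates 2 and 3.

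Klc1, whose promoter stretch holds a CRE, read 6.52, 6.19 and 6.24 in control saline and 6.62, 7.0 and 6.91 in control kainate. These groups do not overlap, which holds for 6.02% of all probe sets in this direction, and the difference was 0.52 ± 0.33 (limma adjusted p = 1, 0.10 in replicate 1, 0.74 in replicates 2 and 3). In mutant mice Klc1 read 7.22, 6.39 and 6.08 after saline and 6.80, 7.0 and 5.91 after kainate, with full overlap. None of the 14 members above the level was higher on all 3 mutant kainate arrays than on all mutant saline arrays, against 1.67% of all probe sets. The average difference of Klc1 was 0.27 ± 0.23 (limma adjusted p = 0.733, -0.16 in replicate 1, 0.48 in replicates 2 and 3). It was 0.43 without mutant kainate replicate 3 (adjusted p = 0.375). Dync1li2 read 7.18, 6.70 and 7.02 in control saline and 7.09, 7.11 and 7.58 in control kainate, a difference of 0.29 ± 0.19. That difference was 0.13 without replicate 3 of both kainate groups in the fit with the block. In mutant mice Dync1li2 read 7.24, 7.22 and 7.11 after saline and 7.04, 7.61 and 7.12 after kainate, a difference of 0.06 ± 0.19. On average it was 0.18 ± 0.13 (limma adjusted p = 0.680, -0.15 in replicate 1, 0.34 in replicates 2 and 3).

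A sign of RNA quality moved with Actr1a. The 3′ minus 5′ signal of the actin control probe sets was 2.20 to 2.44 on the kainate arrays of replicates 2 and 3 and 1.74 to 1.83 on their saline arrays. In replicate 1 the order was turned, with 1.61 to 1.77 after kainate and 1.92 to 2.00 after saline. Actr1a had the same pattern, at 5.98 to 6.07 against 5.21 to 5.59 in replicates 2 and 3 and 6.05 to 6.06 against 6.18 to 6.26 in replicate 1. Klc1 did not follow it in this way: in replicates 2 and 3 it read 5.91 to 7.0 after kainate and 6.08 to 6.39 after saline, which overlap, and in replicate 1 of control mice it was higher by 0.10 after kainate. The 3′ minus 5′ signal of the Gapdh control probe sets did not turn in replicate 1. There it was -0.15 after saline and -0.09 after kainate in control mice, and -0.08 after both in mutant mice. In replicates 2 and 3 it was 0.01 to 0.12 after saline and 0.12 to 0.32 after kainate. The part of RNA quality in the Actr1a and Klc1 differences was not tested.

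**Figure D4:**
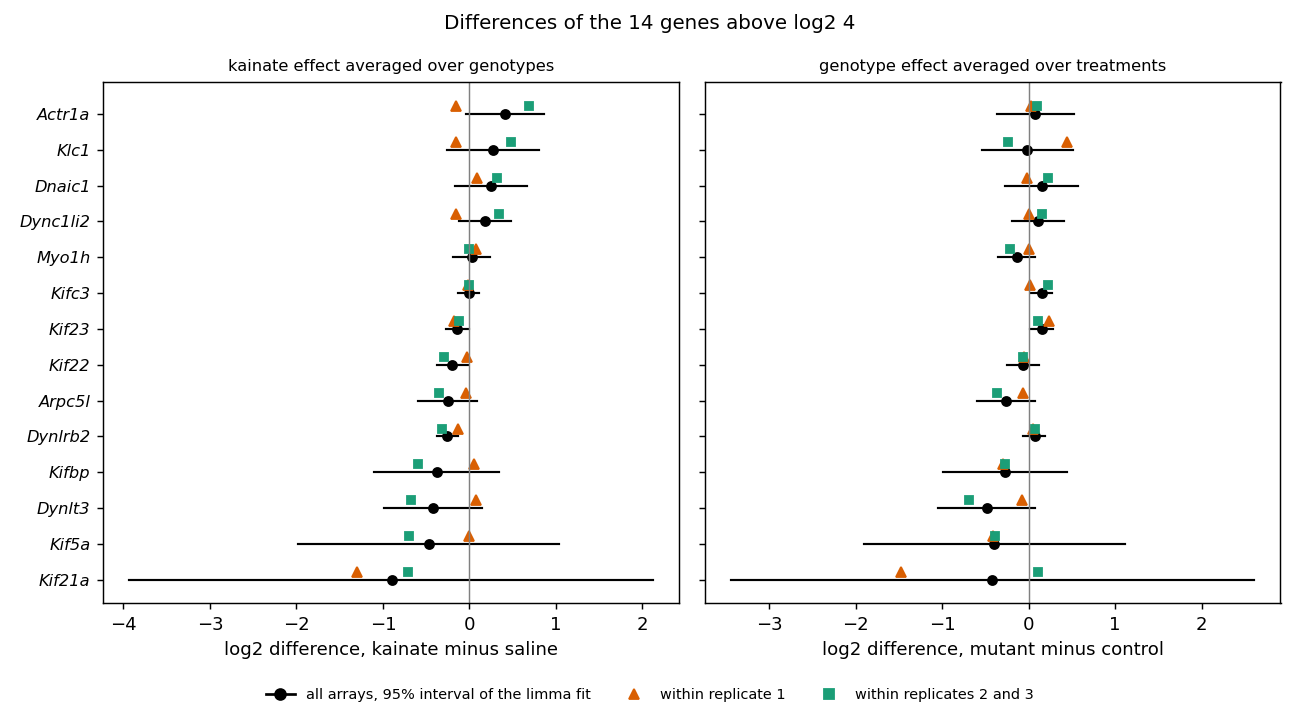
Log2 differences of the 14 genes for kainate minus saline (left) and mutant minus control (right), with the 95% interval of the limma fit and the values of replicate 1 alone (triangles) and of replicates 2 and 3 alone (squares). On the left Dynlrb2, Kif22 and Kif23 have intervals wholly below 0, and Kif21a and Kif5a have the widest intervals, since their replicate 1 arrays stand apart.

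Of the kinesins of cell division, Kif22 and Kif23 read lower after kainate at an unadjusted p under 0.05 on average, and neither passed the adjusted test. Kif22, a chromosome-bound kinesin, read 3.95, 4.32 and 4.15 in control saline and 4.02, 3.95 and 3.83 in control kainate. In mutant mice it read 4.0, 4.21 and 4.01 after saline and 3.86, 3.73 and 4.02 after kainate. It lies at the edge of the dim range and reached log2 4 on 6 arrays, and its groups overlap in both genotypes. More of these 6 arrays were saline than kainate arrays, so Kif22 passed the level mainly where it reads higher. The difference was -0.21 ± 0.11 in control mice, -0.20 ± 0.11 in mutant mice and -0.20 ± 0.08 on average (limma adjusted p = 0.384, -0.03 in replicate 1, -0.29 in replicates 2 and 3).

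Kif23, the centralspindlin kinesin of cytokinesis, read 4.80, 4.77 and 4.78 in control saline and 4.73, 4.68 and 4.68 in control kainate. These groups do not overlap, as for 4.63% of all probe sets in this direction. In mutant mice it read 5.14, 5.03 and 4.79 after saline and 4.85, 4.78 and 4.76 after kainate, and the groups overlap. The difference in mutant mice was -0.19 ± 0.08 (limma adjusted p = 0.579), and on average it was -0.14 ± 0.06 (adjusted p = 0.416, -0.18 in replicate 1, -0.12 in replicates 2 and 3). Of the 15 markers of dividing cells Mcm5 and Aurkb were on the array, and both stayed below log2 4.

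Kif21a and Kif5a, the kinesins with the split by replicate, also read lower after kainate in replicates 2 and 3. In replicate 1 Kif21a was lower too. Kif5a in replicate 1 read 8.01 after saline and 8.10 after kainate in control mice, and 7.70 and 7.59 in mutant mice. In replicates 2 and 3 Kif21a read 9.06 to 9.25 after saline and 8.25 to 8.53 after kainate. How many of all probe sets separate in this way was not counted. In mutant mice the deviations of saline and kainate arrays from their group means correlated at 0.0448 for replicate 2 and -0.0779 for replicate 3. The second value involves the compressed array, mutant kainate replicate 3. Whether the numbers pair these arrays is not known. The average difference of Kif21a was -0.90 ± 1.34 (limma adjusted p = 0.846, -1.30 in replicate 1, -0.71 in replicates 2 and 3). Its error holds the replicate 1 offset, and with the replicate number as a block the adjusted p was 0.269. Kif5a in replicates 2 and 3 of control mice read 6.26 and 6.23 after saline and 5.81 and 5.45 after kainate, and in mutant mice 5.70 and 6.18 against 5.44 and 4.87. Its average difference was -0.47 ± 0.67 (limma adjusted p = 0.839, -0.01 in replicate 1, -0.70 in replicates 2 and 3), with an adjusted p of 0.294 under the block, and it was -0.20 without mutant kainate replicate 3. Neither gene passed the test in any of these fits.

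The other members overlapped between saline and kainate arrays on average. Dynlt3, a Tctex-type light chain of dynein, had an average difference of -0.42 ± 0.25 (limma adjusted p = 0.580, 0.08 in replicate 1, -0.68 in replicates 2 and 3). The difference rested in part on mutant kainate replicate 3, which read 9.27 against 10.46 to 11.49 on all other arrays. Without that array it was -0.21. Dnaic1 gave 0.25 ± 0.19 (adjusted p = 0.681, 0.09 in replicate 1, 0.32 in replicates 2 and 3), with the highest value, 7.12, on the same array, and 0.07 without it. Kifbp gave -0.38 ± 0.32 (adjusted p = 0.712, 0.05 in replicate 1, -0.60 in replicates 2 and 3), and -0.19 without that array. Arpc5l, Kifc3 and Myo1h stayed between -0.25 and 0.03. Without replicate 3 of both kainate groups, and with replicate 1 against the others as a block, the average kainate difference was -0.95 for Kif21a, -0.27 for Kif5a and for Kifbp, 0.31 for Actr1a, 0.38 for Klc1 and 0.13 for Dync1li2. In that fit it was -0.20 for Kif22, -0.14 for Kif23, -0.18 for Dynlt3 and -0.01 for Dnaic1, and no member passed.

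Whether the kainate response of these genes depends on CREB and CREM was tested by the interaction of genotype and kainate. None of the 14 members passed (limma, lowest adjusted p = 0.973), none had an unadjusted p under 0.05, and 0% and 0.875% of all probe sets did. The member with the largest negative value was Klc1, with an interaction of -0.51 ± 0.47 (95% interval -1.57 to 0.54, adjusted p = 0.973). Its value was alike in replicate 1 alone (-0.52) and in the other replicates (-0.51). It was -0.18 without mutant kainate replicate 3 and -0.15 without replicate 3 of both kainate groups in the fit with the block. For Dynlrb2 it was -0.09 ± 0.11 (95% interval -0.34 to 0.16, adjusted p = 0.973). The kainate difference in control mice, -0.21, had a 95% interval of its own, -0.39 to -0.03. With 3 arrays per group these intervals do not settle whether the difference is smaller, alike or larger in mutant mice.

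Mutant and control mice were compared after saline, after kainate and on average, and no member passed the adjusted limma test in any of these, nor did any other probe set (0% in each). At an unadjusted p under 0.05 there were 2 of 14 members after saline (12.1% of all probe sets), 0 after kainate (4.72%) and 2 on average (19.1%). Both members were Kifc3 and Kif23, each higher in the mutants. Kifc3 read 4.53, 4.35 and 4.5 in control saline, 4.62, 4.76 and 4.63 in mutant saline, 4.59, 4.47 and 4.48 in control kainate and 4.53, 4.58 and 4.69 in mutant kainate. The groups do not overlap after saline, as for 29.0% of all probe sets in this direction, and overlap after kainate. None of the 14 members was lower on all 3 mutant saline arrays, against 5.11% of all probe sets. The difference was 0.21 ± 0.07 after saline (adjusted p = 0.385) and 0.15 ± 0.05 on average (adjusted p = 0.247, 0.02 in replicate 1, 0.22 in replicates 2 and 3). For Kif23 it was 0.20 ± 0.08 after saline (adjusted p = 0.389), 0.11 ± 0.08 after kainate with no overlap (adjusted p = 0.550, as for 2.43% of all probe sets) and 0.15 ± 0.06 on average (adjusted p = 0.247, 0.24 and 0.11).

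Probe sets in the dim range also read higher in mutant saline. Of the 38 members below the level, 29 read higher on all 3 mutant saline arrays than on all 3 control saline arrays, by at most 0.15, and 61.4% of all 11868 probe sets did so. After kainate none of the 38 separated in either direction (1.51% of all probe sets higher, 1.27% lower). Kifc3 and Kif23 read 4.35 to 5.14, close to that range, and the part of this array-wide difference in their values was not tested.

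Dynlt3 and Arpc5l read lower on all 3 mutant kainate arrays than on all 3 control kainate arrays, as 3.78% of all probe sets did. Dynlt3 read 10.68, 10.83 and 10.83 in control kainate and 10.67, 10.46 and 9.27 in mutant kainate, a difference of -0.65 ± 0.36 (limma adjusted p = 0.550). Arpc5l read 8.87, 8.80 and 8.83 against 8.75, 8.77 and 7.83, a difference of -0.38 ± 0.21 (adjusted p = 0.550). In both the lowest value is that of the compressed array, and without it the differences were -0.22 and -0.07. Without replicate 3 of both kainate groups and with the block they were -0.19 and -0.08, and the average genotype difference was 0.12 for Kifc3 and 0.16 for Kif23. Averaged over treatments Dynlt3 gave -0.48 ± 0.25 (adjusted p = 0.307), and -0.27 without that array. On that array 86.2% of all probe sets with a mean of log2 7 or more read below both other mutant kainate arrays. Of the 4 members with such a mean, 2 did so.

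Other genes of the cytoskeleton were counted in the same way. Of 232 listed genes (actin regulators, microtubule-associated proteins, motor adaptors with dynactin, intermediate filaments and spectrins) 34 were read above the level by 45 probe sets. None passed in either direction in any of the 7 comparisons, which here also include both averages and the interaction. At an unadjusted p under 0.05 there were 3 of 45 for kainate on average (11.3% of all probe sets) and 3 of 45 for genotype on average (19.1%). The median kainate difference of the 45 was -0.02, against -0.04 over all probe sets and -0.17 for the 14 motor and cytoskeleton members.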

How the data were processed

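Hippocampal RNA was measured on 12 arrays. The deposited values are log2 values made by the authors with GCRMA in R 2.4.1, per the submitters' processing notes (the GCRMA version is not given in the sources used here); they were used as deposited. Array medians ran from 3.26 to 3.41. With 3 arrays in each group, their number limits the precision. Names came from the platform annotation, and all 39 symbols were found in RefSeq. The 66 control probe sets were left out, and 3541 of the other 11868 passed the level of log2 4 on 3 or more arrays.

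Groups were compared with limma 3.58.1 in R 4.3.3 (lmFit, contrasts.fit, eBayes; 4 group means, 8 residual degrees of freedom), adjusted by Benjamini-Hochberg over the 3541 probe sets. The script was tested on simulated data. Errors on differences are standard errors. Named are members that passed the test, the 4 largest positive and 4 largest negative differences of a comparison at most, the 3 brightest of each role, genes with several probe sets above the level, and up to 3 genes of another list; members below the level, Gfap and the markers below the level were named after their values were seen. The members and lists were chosen with earlier results of these data known.

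Same-numbered arrays deviated from their group means together, with correlations of 0.383 to 0.627 for kainate in control mice, 0.470 to 0.855 for genotype after saline and 0.190 to 0.578 for genotype after kainate, but -0.0779 to 0.479 for kainate in mutant mice. The pairing comes from these correlations and from shared replicate numbers, and the labels do not state it. Alternatives were a replicate block, a batch block, other filters, quantile normalization, array weights, other variance models and arrays left out.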

Additional observations from a re-analysis of the deposited data

How the results depend on the processing

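The count of members past the threshold stayed at 0 under all alternatives for 6 of the 7 comparisons. For the average kainate effect it was 3 with array weights and 0 otherwise. Those 3 were Dynlrb2 (-0.23, adjusted p = 0.0131), Kif22 (-0.27, adjusted p = 0.0233) and Klc1 (0.60, adjusted p = 0.0402). This fit gave weights from 0.0968 (mutant kainate replicate 3) to 3.91 (control saline replicate 3) and called 482 of 3541 probe sets against 5 in the unweighted fit. For kainate in control mice the weighted fit gave Dynlrb2 a difference of -0.25 (limma adjusted p = 0.0502), just short of the threshold, and called 51 probe sets in all. The default method for the weights did not converge, so the gene-by-gene method was used. The cause of the calls was not tested.

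With the replicate number as a block no member passed, and the averaged Dynlrb2 difference was -0.26 (adjusted p = 0.235). For kainate in mutant mice the block took the count over all probe sets from 1 to 2. There the deviations of same-numbered arrays from their group means correlated clearly only in replicate 1 (0.479). For kainate in control mice, where they correlated in every replicate, the count went from 1 to 3. Of 31 differences 27 kept their direction under every alternative. Dnaic1 on average was -0.01 without control kainate replicate 3 and mutant kainate replicate 3, with or without the batch block. Kif5a on average was 0.05 without both arrays, Kif21a on average ran from -1.69 to 0.00 when each array was left out, and the Dynlrb2 interaction was 0.04 with array weights. The cause was not tested.

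Leaving out mutant kainate replicate 1 took the count over all probe sets to 67 for kainate in mutant mice, 56 for kainate on average and 15 for genotype after kainate, with no member among them. The averaged Dynlrb2 difference stayed at -0.28 to -0.22 over all left-out arrays (adjusted p = 0.0742 to 0.672). A level of log2 3 would count 28 members in place of 14, and log2 5 would count 10. Signals in the dim range set a limit on Kif17, Kif22, Kifc3 and Dynlrb2.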
